A study of Mus musculus with 2 samples.

Results

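ERV1 elements are endogenous retroviruses related to the gammaretroviruses, and they were measured here as rows of a single-cell count matrix from mouse testis. The members are the 86 matrix rows whose name is no Ensembl gene identifier and carries the class label ERV1, as given by RepBase, a library of repeat consensus sequences. They stand among 51868 rows, of which 50686 were genes and 1182 were repeat sequences. At least 1 UMI (unique molecular identifier, a tag that counts captured RNA molecules) was found for 53 ERV1 rows, and 33 rows had none. The 22 rows with at least 100 UMIs are described by name. The lowest of these had 111 UMIs, and the highest row left out had 99.

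The cells came from testes, labelled whole testis, of 2 wild-type littermates of the strain C57Bl/6J Crl at 8 weeks of age. After removal of the tunic, seminiferous tubules were isolated and cut, digested with enzymes and strained, and 1 Chromium 3′ droplet library was made from each mouse. The mice received no treatment and form 1 group, so comparisons were made between cell groups, with the mouse as the replicate. Straining also served to keep somatic cells few, so the Sertoli-like and Leydig-like cells described here are those that passed it.

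An endogenous retrovirus carries an internal stretch of viral genes between a pair of long terminal repeats (LTRs), which hold the promoter and the signal for the end of the RNA. Recombination between the LTRs of a copy can leave a solitary LTR in the genome. Host cells restrain these elements with zinc finger proteins that recruit Trim28 and Setdb1 to methylate histone H3 at lysine 9, and with DNA methylation. Germ cells remodel their chromatin during meiosis and again when spermatids condense.

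A row here is a consensus sequence and not a place in the genome. The genome used for counting was masked for repeats, so a row could take up reads from any copy, including copies within other transcripts, and no copy can be named. Reads that align equally well to several rows are left out by the counting program, so the counts of closely related rows (the LTRIS, RLTR1, RLTR6 and RLTR30 series) are uncertain. Row lengths differ and were not corrected for. Levels are therefore given in CPM (the UMIs of a row, scaled to the same total of UMIs in every group) and compared between cell groups within a row, not between rows.

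ERV1 rows received 17783 of 57752829 UMIs, or 0.0308%. The 49 rows whose names assign them to the genus Mus held 17758 of the UMIs, and the other 37 rows held 25. All 23 rows assigned to Eutheria and all 4 assigned to Mammalia had no UMI. The 5 rows with the most UMIs held 52.5% of the ERV1 UMIs, and the 22 named rows held 95.5%. Rows named as internal parts, 11 in number, held 22.6%, and the other 75 rows, which are LTRs or carry no such mark in their names, held 77.4%.

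Cells were grouped with gene rows alone, so that no ERV1 row took part in the grouping. Groups were named from marker genes and are called "-like" for that reason. They comprised 164 early spermatocyte-like cells, 527 cells with markers of pachytene or later spermatocytes, 451 round spermatid-like cells and 705 cells with markers of elongating or condensing spermatids. The second and the last of these names are shortened to pachytene-like and elongating-like. A group of 687 cells received no name, since 1 of 12 round spermatid markers reached 1.5 times its level over all cells. Members of the Ssxb family were among its leading genes. There were also 7 Sertoli-like cells, 5 Leydig-like cells and 6 cells without a name. The 6 cells showed spermatogonium markers, but the early spermatocyte marker Stra8 was among their leading genes. Cells had 7114 to 154431 UMIs, the median was lowest among the tested groups in elongating-like cells at 13215 UMIs, and no barcode was shared between the mice.

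The named rows followed different courses along spermatogenesis. In 15 of the 22 named rows, the same germ cell group was highest in both mice. That group was early spermatocyte-like for 6 rows, round spermatid-like for 5, unnamed for 2, pachytene-like for 1 and elongating-like for 1. The elongating-like group had the lowest mean level in 14 rows. Low CPM in this group was not particular to ERV1 rows. In a test by total UMIs, 7521 of 15005 rows were called lower in elongating-like than in round spermatid-like cells. The shares of all rows with the same highest or lowest group were not computed. In the accounts of single rows, highest and lowest refer to these 5 germ cell groups. CPM is a share of the RNA captured, so a fall of a row and a rise of the other transcripts cannot be told apart.

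**Figure D1:**
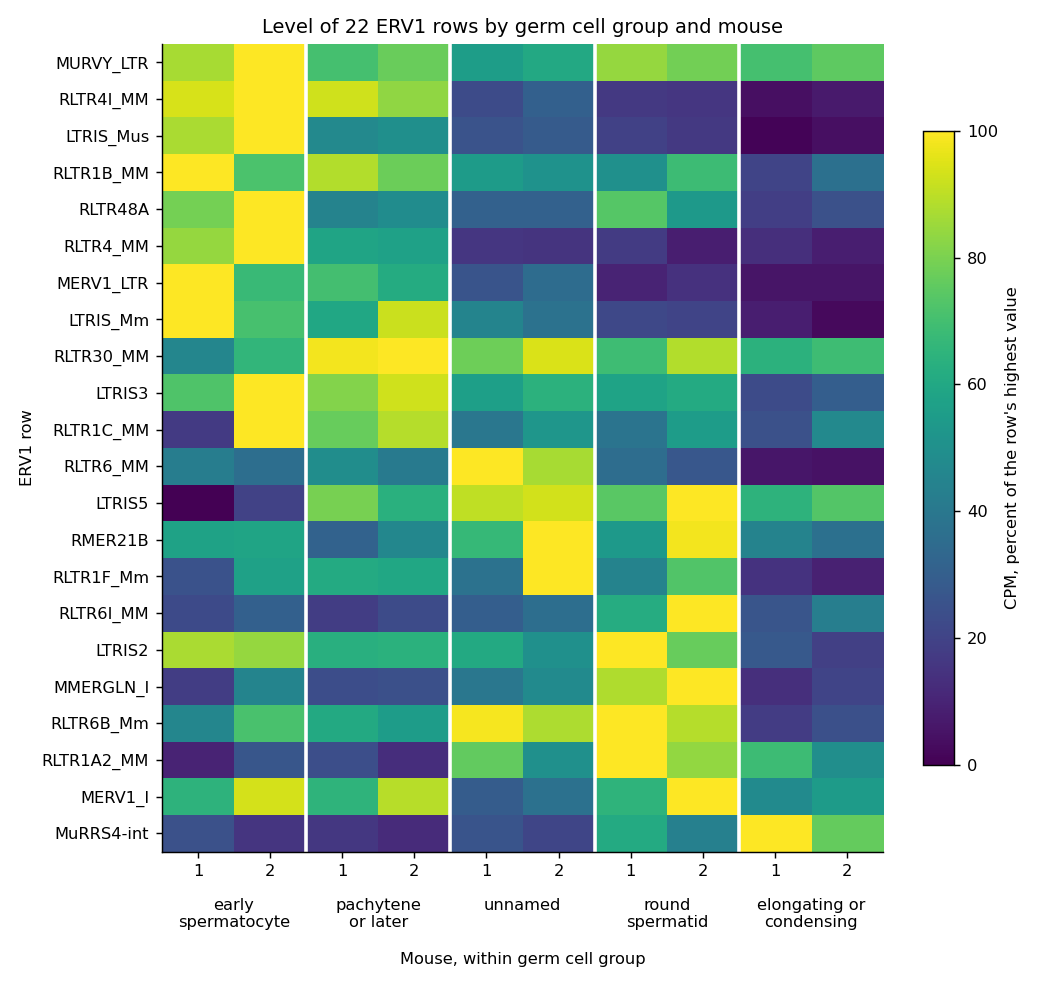
CPM of the 22 named ERV1 rows (vertical axis) in 5 germ cell groups and, within each group, in mouse 1 and mouse 2 (horizontal axis); colour gives the CPM as a percentage of the row's highest value. RLTR4I_MM and LTRIS_Mus, near the top, are highest in early spermatocyte-like cells, RLTR6I_MM, MMERGLN_I and RLTR1A2_MM are highest in round spermatid-like cells, and MuRRS4-int is highest in elongating-like cells.

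Murine leukaemia virus (MLV) is represented by the internal row RLTR4I_MM and the LTR row RLTR4_MM. RLTR4I_MM stood at 33.0 CPM in mouse 1 and 35.1 CPM in mouse 2 in early spermatocyte-like cells, and at 32.6 and 29.2 CPM in pachytene-like cells. In the unnamed group it stood at 8.02 and 10.7 CPM, in round spermatid-like cells at 5.76 and 5.60 CPM, and in elongating-like cells at 1.43 and 2.53 CPM. The levels of the spermatocyte groups did not overlap with those of the later groups. RLTR4_MM had means of 11.03 ± 1.34, 6.92 ± 0.105, 1.84 ± 0.0515, 1.53 ± 0.768 and 1.31 ± 0.419 CPM (SD, n = 2) in the same order of groups. Among the 5 germ cell groups, both MLV rows were thus highest in spermatocytes. From pachytene to round, RLTR4I_MM fell by 2.13 on the log2 scale (standard error 0.234) with an adjusted p of 6.38e-08 in edgeR's quasi-likelihood test with Benjamini-Hochberg adjustment. RLTR4_MM fell by 1.93 (standard error 0.379, adjusted p = 0.000123, edgeR), a call that was lost when cells were thinned to an equal depth.

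VL30 elements are non-coding retroviral sequences that can be packaged into MLV particles, and their LTR row RLTR6_MM and internal row RLTR6I_MM followed different courses. RLTR6_MM stood at 26.6 CPM in mouse 1 and 22.7 CPM in mouse 2 in early spermatocyte-like cells, at 30.8 and 25.9 CPM in pachytene-like cells, and at 63.0 and 54.7 CPM in the unnamed group. It then stood at 22.6 and 17.1 CPM in round spermatid-like cells and at 3.74 and 3.03 CPM in elongating-like cells. Among the 5 germ cell groups, the LTR row was thus highest in the unnamed group in both mice. RLTR6I_MM stood at 16.5 and 22.7 CPM in early spermatocyte-like cells, at 13.4 and 16.9 CPM in pachytene-like cells, at 22.0 and 26.8 CPM in the unnamed group, at 45.9 and 73.9 CPM in round spermatid-like cells and at 19.6 and 31.6 CPM in elongating-like cells. The internal row was highest in round spermatid-like cells, with the higher value in mouse 2 in each of these groups.

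From pachytene to round, RLTR6I_MM rose by 2.32 on the log2 scale (standard error 0.238, adjusted p = 2.39e-08, edgeR), whereas RLTR6_MM changed by -0.22 (standard error 0.183, adjusted p = 0.278, edgeR) and did not pass. From round to elongating, RLTR6_MM fell by 1.67 (standard error 0.253, adjusted p = 1.07e-05, edgeR). RLTR6I_MM had a change of -0.37 in that step and did not pass, but with the mouse as a block it fell by 0.36 with an adjusted p of 0.0255 (edgeR), and it also passed after thinning and without scaling factors. A further LTR row of this series, RLTR6B_Mm, had means of 10.5, 10.4, 16.8, 16.97 and 3.79 CPM over the 5 groups from early to elongating. It rose by 1.002 from pachytene to round (adjusted p = 0.000331, edgeR) and fell by 1.29 from round to elongating (adjusted p = 0.000361, edgeR).

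The share of internal UMIs was compared within each mouse. The libraries used 3′ chemistry, and the effect of read position along the RNA on this share was not tested, here or for other pairs. Of the UMIs on RLTR6_MM and RLTR6I_MM together, the internal row took 30.3% (exact 95% binomial interval 26.1 to 34.7%) in mouse 1 and 39.5% (34.1 to 45.1%) in mouse 2 in pachytene-like cells. It took 67.0% (61.3 to 72.3%) and 81.2% (77.7 to 84.4%) in round spermatid-like cells, and 84.0% (76.5 to 89.8%) and 91.3% (86.5 to 94.7%) in elongating-like cells. The last values combined unlike clusters, with 93.9% (87.1 to 97.7%) and 97.1% (93.5 to 99.1%) in a cluster of 200 cells and 54.5% (36.4 to 71.9%) and 58.1% (39.1 to 75.5%) in a cluster of 505 cells, where the share lay below that of round spermatid-like cells, with overlapping intervals in mouse 1. The intervals of the pachytene and round groups did not overlap in either mouse. All intervals given here cover counting error only. Further LTR rows of the RLTR6 series, among them RLTR6B_Mm with 686 UMIs, were left out of these shares, and counting them would lower the shares. The MLV pair did not show this course, with 82.3% and 81.0% internal UMIs in pachytene-like cells and 73.5% and 85.0% in round spermatid-like cells.

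**Figure D2:**
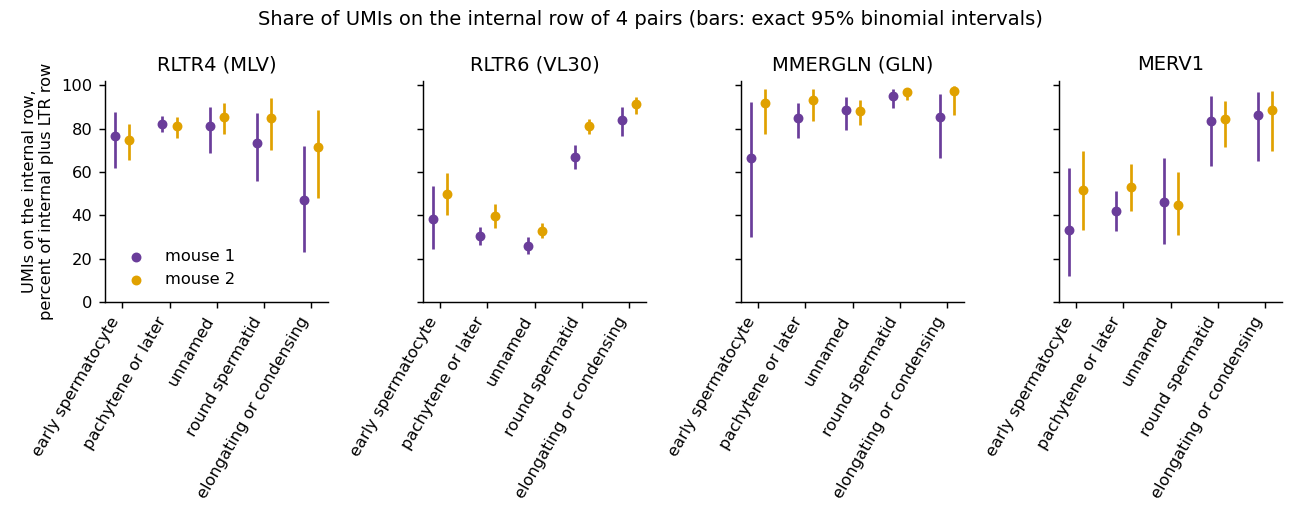
UMIs on the internal row as a percentage of internal plus LTR row (vertical axis) for 4 pairs of rows in 5 germ cell groups (horizontal axis); points are mice and bars are exact 95% binomial intervals. The share for RLTR6 goes from 30.3% and 39.5% in pachytene-like cells to 67.0% and 81.2% in round spermatid-like cells, while that for RLTR4 is 82.3% and 81.0% against 73.5% and 85.0%.

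GLN elements are related to MLV and use a glutamine tRNA as primer. Their internal row MMERGLN_I stood at 5.50 CPM in mouse 1 and 13.6 CPM in mouse 2 in early spermatocyte-like cells, at 7.09 and 7.38 CPM in pachytene-like cells and at 11.9 and 14.4 CPM in the unnamed group. It reached 26.5 and 30.1 CPM in round spermatid-like cells and stood at 4.10 and 6.23 CPM in elongating-like cells. The round spermatid-like values lay above those of all other germ cell groups. MMERGLN_I rose by 2.28 on the log2 scale from pachytene to round (standard error 0.244, adjusted p = 4.30e-08, edgeR) and fell by 1.59 from round to elongating (standard error 0.272, adjusted p = 4.61e-05, edgeR). The LTR row MMERGLN_LTR had 72 UMIs in all.

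MuRRS is a group of murine retrovirus-related sequences. The internal row MuRRS4-int, the only row that carries this name, was highest in spermatids among the germ cell groups. Its levels were 4.58 and 2.89 CPM in early spermatocyte-like cells, 2.97 and 2.28 CPM in pachytene-like cells and 4.78 and 3.85 CPM in the unnamed group of mouse 1 and mouse 2. They were 11.3 and 8.06 CPM in round spermatid-like cells and 18.5 and 14.1 CPM in elongating-like cells. Of the 22 named rows, this was the one that was highest in the elongating-like group in both mice. MuRRS4-int rose by 2.14 on the log2 scale from pachytene to round (standard error 0.294, adjusted p = 1.58e-06, edgeR) and by 1.64 from round to elongating (standard error 0.248, adjusted p = 1.09e-05, edgeR).

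MURVY, a retrovirus repeated on the Y chromosome, was seen almost entirely through its LTR. MURVY_LTR received 1588 UMIs and the internal row MURVY-int received 16. MURVY_LTR stood at 33.0 CPM in mouse 1 and 38.0 CPM in mouse 2 in early spermatocyte-like cells, at 26.8 and 29.2 CPM in pachytene-like cells, at 21.2 and 23.0 CPM in the unnamed group, at 32.0 and 30.0 CPM in round spermatid-like cells and at 26.7 and 28.6 CPM in elongating-like cells. The ratio of the highest to the lowest group mean was 1.61. It rose by 0.46 on the log2 scale from pachytene to round (adjusted p = 0.0148, edgeR), a call that was lost without scaling factors. From round to elongating it was called higher by 0.70 (adjusted p = 0.00119, edgeR), but without scaling factors the change was -0.16 and was not called.

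RLTR30_MM, an LTR row, received more UMIs than any other ERV1 row, 3370 in all. Its levels were 32.1 and 45.8 CPM in early spermatocyte-like cells, 68.5 and 69.8 CPM in pachytene-like cells and 54.4 and 65.7 CPM in the unnamed group of mouse 1 and mouse 2. They were 48.2 and 61.7 CPM in round spermatid-like cells and 44.9 and 48.0 CPM in elongating-like cells. The row was thus lowest in the early group. It rose by 1.05 on the log2 scale from early to pachytene (standard error 0.197, adjusted p = 0.000171, edgeR), and was called higher by 0.61 from round to elongating (adjusted p = 0.00613, edgeR), where the change without scaling factors was -0.25 and was not called.

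The MERV1 pair again separated into an LTR and an internal course. MERV1_LTR had means of 7.68, 6.03, 2.82, 1.12 and 0.520 CPM from early to elongating, and fell by 2.07 on the log2 scale from pachytene to round (standard error 0.394, adjusted p = 8.59e-05, edgeR). MERV1_I had means of 5.59, 5.45, 2.35, 5.84 and 3.63 CPM and passed in none of the 3 steps. The internal share was 41.7% (32.6 to 51.3%) and 52.8% (41.9 to 63.5%) in pachytene-like cells, and 83.3% (62.6 to 95.3%) and 84.3% (71.4 to 93.0%) in round spermatid-like cells.

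The LTRIS rows did not share a course. LTRIS2 stood at 26.6 and 25.6 CPM in early spermatocyte-like cells, at 19.2 and 19.5 CPM in pachytene-like cells, at 18.4 and 15.3 CPM in the unnamed group, at 30.4 and 23.4 CPM in round spermatid-like cells and at 8.55 and 5.72 CPM in elongating-like cells of mouse 1 and mouse 2. It rose by 0.78 from pachytene to round (adjusted p = 0.00115, edgeR) and fell by 1.04 from round to elongating (adjusted p = 0.000561, edgeR). LTRIS_Mus had means of 34.4, 17.8, 9.99, 6.62 and 0.936 CPM and fell in each of the 3 steps, by 0.69, 1.12 and 1.91 (adjusted p = 0.0191, 0.000501 and 0.000826, edgeR). This was the steepest decline among the named rows, with a ratio of 36.8 between the highest and the lowest group mean. All 3 calls were lost after thinning, and the last change was -1.15 in mouse 2 alone and -3.46 in mouse 1 alone, where 2 UMIs were left.

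LTRIS_Mm had means of 5.48, 4.87, 2.65, 1.35 and 0.351 CPM and fell to 0.354 of its pachytene level in the round group (adjusted p = 0.00293, edgeR), a call that DESeq2 did not make. LTRIS5 took the opposite direction, with means of 1.24, 9.05, 11.6, 11.1 and 8.73 CPM. It rose by 2.68 from early to pachytene (standard error 0.504, adjusted p = 0.000167, edgeR). Early spermatocyte-like cells of mouse 1 had no UMI for LTRIS5 and those of mouse 2 had 6, and the change was 1.88 in mouse 2 alone. Its rise of 0.60 from pachytene to round (adjusted p = 0.0445, edgeR) was 1.002 in mouse 2 and 0.19 in mouse 1, and was lost without scaling factors and after thinning. LTRIS3 had means of 17.4, 17.6, 12.2, 12.0 and 5.35 CPM and passed in no step.

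Among the rows of the RLTR1 series, RLTR1A2_MM stood out. It had 1.83 and 4.96 CPM in early spermatocyte-like cells, 4.41 and 2.41 CPM in pachytene-like cells, 14.0 and 9.26 CPM in the unnamed group, 18.4 and 15.5 CPM in round spermatid-like cells and 12.6 and 9.09 CPM in elongating-like cells of mouse 1 and mouse 2. The spermatid values did not overlap with the spermatocyte values. It rose by 2.56 on the log2 scale from pachytene to round (standard error 0.305, adjusted p = 2.21e-07, edgeR). RLTR1B_MM had means of 13.4, 12.9, 8.24, 9.27 and 4.47 CPM, RLTR1C_MM had means of 6.28, 8.88, 4.96, 5.04 and 3.86 CPM, and RLTR1F_Mm had means of 1.49, 2.17, 2.49, 2.12 and 0.436 CPM. These 3 rows passed in no step.

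RLTR48A had means of 10.4, 5.40, 3.60, 7.39 and 2.50 CPM and rose by 0.74 from pachytene to round (adjusted p = 0.0189, edgeR), a call lost without scaling factors. RMER21B had means of 3.69, 2.48, 5.32, 4.85 and 2.60 CPM and rose by 1.35 in the same step (adjusted p = 0.00229, edgeR), a call lost after thinning. The 31 rows with 1 to 99 UMIs held 797 UMIs together. Of these, RLTR1D2_MM, RLTR14, MMERGLN_LTR, RMER2 and RLTR24_MM had enough UMIs to be tested, and 2 were called in a step. The shares of all rows called are given with each step below. RMER2 had 11 UMIs in pachytene-like cells (0.670 and 0.537 CPM in mouse 1 and mouse 2), 19 in round spermatid-like cells (1.15 and 2.30 CPM) and 2 in elongating-like cells, and was called higher and then lower (adjusted p = 0.00910 and 0.0285, edgeR). RLTR1D2_MM had no UMI in early spermatocyte-like cells and 26 in pachytene-like cells (adjusted p = 0.02496, edgeR), which is at least 1.70-fold higher when 3 counts over the early group are taken as the limit. Both rows passed the filter on low counts only through the unnamed and round groups, where they were high. For RMER2 these were the unnamed cells of mouse 1 (1.88 CPM) and the round cells of mouse 2. The filter thus favoured the calls for RMER2. For RLTR1D2_MM, the unnamed and round groups took no part in the comparison in which it was called, and that call rests on an early group without a UMI. The calls for both rows rest on few UMIs and are included in the counts below.

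The first comparison set pachytene-like against early spermatocyte-like cells, and few ERV1 rows were called. The early cells of mouse 1 had the lowest total of the tested sums, 1091527 UMIs. A row that was not called is therefore not shown to be unchanged. Of the 86 rows, 27 had enough UMIs to be tested. RLTR30_MM, RLTR6_MM, LTRIS5 and RLTR1D2_MM were called higher and LTRIS_Mus was called lower. These are 4 and 1 of the 27 rows, while 25.0% of all 15005 rows tested were called higher and 23.4% lower. The call for RLTR1D2_MM carries the limit given above. The median log2 change was 0.11 over the ERV1 rows and 0.01 over all rows. The call for RLTR6_MM (0.52, adjusted p = 0.0494, edgeR) was lost with DESeq2, with RLE size factors, without scaling factors and after thinning. With each of the first 3 of these settings, RLTR48A was called lower instead, so that the 5 calls divided into 3 higher and 2 lower.

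The second comparison set round spermatid-like against pachytene-like cells, and the ERV1 rows moved in both directions. Of the 27 rows, 11 were called higher and 5 lower, beside 36.9% and 37.4% of all rows tested. Those called higher were RLTR1A2_MM, RLTR6I_MM, MMERGLN_I, MuRRS4-int, RMER2, RMER21B, RLTR6B_Mm, LTRIS2, RLTR48A, LTRIS5 and MURVY_LTR, where RMER2 carries the limit given above. Those that fell were both MLV rows, MERV1_LTR, LTRIS_Mm and LTRIS_Mus. The median log2 change was 0.46 over the ERV1 rows and -0.11 over all rows. Without scaling factors, 8 rows were called higher and 8 lower.

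The third comparison set elongating-like against round spermatid-like cells. MuRRS4-int, MURVY_LTR and RLTR30_MM were called higher, and RLTR6_MM, MMERGLN_I, RLTR6B_Mm, LTRIS2, LTRIS_Mus and RMER2 were called lower. These are 3 and 6 of the 27 rows, beside 27.0% and 26.0% of all rows tested. The call for RMER2 carries the limit given above. The median log2 change was -0.54 over the ERV1 rows and -0.02 over all rows. The scaling mattered most in this step, and without scaling factors 1 row (MuRRS4-int) was called higher and 15 lower. TMM scaling, which assumes that most rows do not change, raised the log2 changes relative to total UMIs by 0.30 from early to pachytene, by 0.31 from pachytene to round and by 0.86 from round to elongating.

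**Figure D3:**
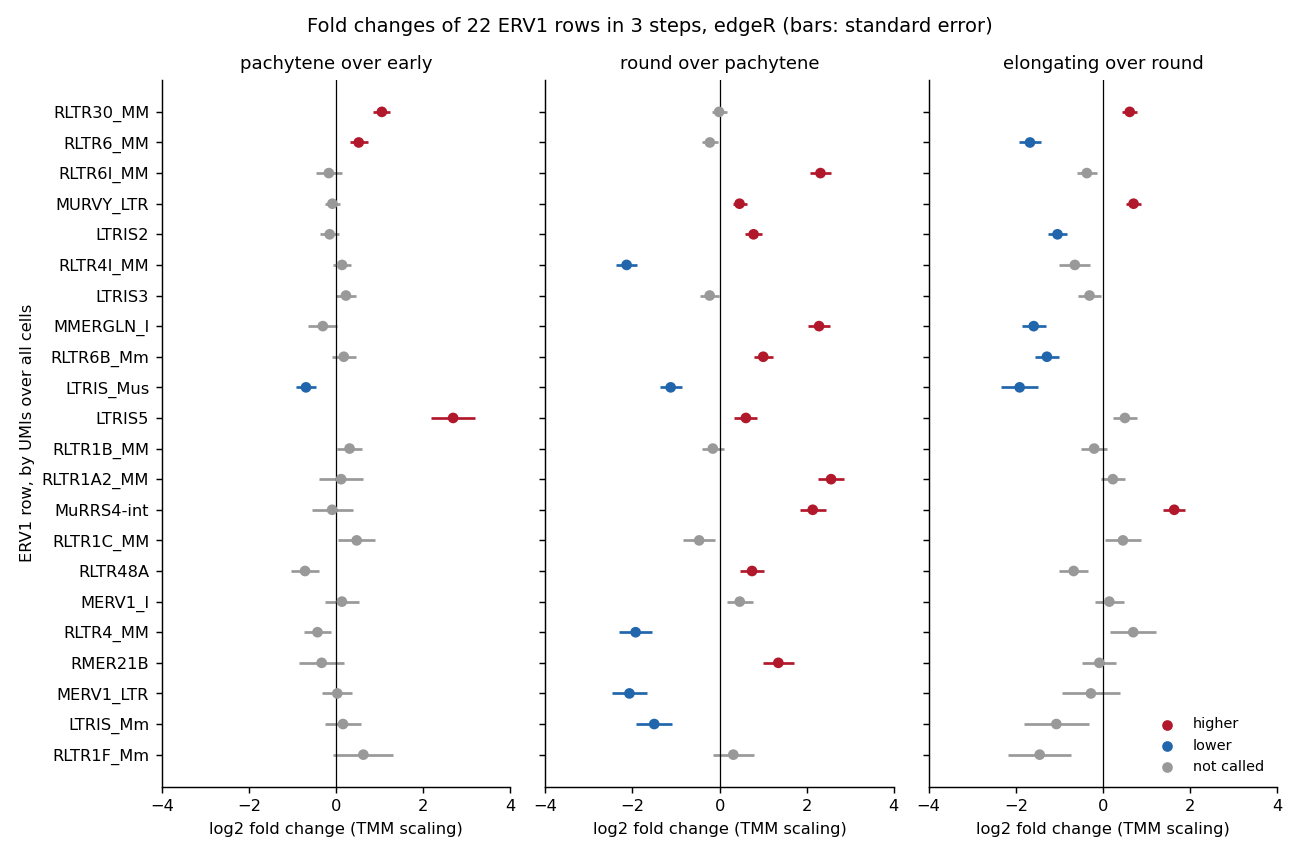
Log2 fold changes of the 22 named ERV1 rows (vertical axis, from most to fewest UMIs) in 3 steps, one per panel; points are edgeR estimates with TMM scaling, bars are standard errors, and colours mark rows called higher, lower or not called at an adjusted p under 0.05. Most calls lie in the step from pachytene to round, where RLTR1A2_MM rose by 2.56 and RLTR4I_MM fell by 2.13. This step also had the most calls over all rows tested, with 36.9% called higher and 37.4% lower.

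The elongating-like group consisted of a cluster of 200 cells and a cluster of 505 cells, which differed in their ERV1 RNA. The former had a median of 23510 UMIs per cell and the latter 11702. Markers of elongating or condensing spermatids had a mean standardised expression of 0.898 in the smaller cluster and 1.416 in the larger one. In the smaller cluster, round spermatid markers came next with 0.578. By total UMIs, ERV1 rows together took 252 CPM in mouse 1 and 255 CPM in mouse 2 in the smaller cluster. They took 133 and 145 CPM in the larger one. ERV2 rows took 1397 and 1455 CPM in the smaller and 478 and 512 CPM in the larger cluster. ERV3 rows took 387 and 364 CPM against 129 and 123 CPM. A lower sum in the larger cluster was thus not particular to ERV1 rows. The sums of these clusters were not computed with TMM library sizes, whereas the calls of rows below use TMM scaling, so the size of these differences may depend on the scaling. When the clusters were fitted separately, 23 ERV1 rows were tested. From the smaller to the larger cluster, 3 rows were called higher and 7 lower, beside 16.4% and 23.2% of 14146 rows tested. RLTR6I_MM stood at 44.0 and 59.4 CPM in the smaller cluster and at 5.11 and 5.85 CPM in the larger one, a fall of 2.65 on the log2 scale (standard error 0.305, adjusted p = 2.75e-07, edgeR). MMERGLN_I fell by 2.12 (adjusted p = 0.00129, edgeR), and MERV1_I had 39 UMIs in the smaller and 3 in the larger cluster (adjusted p = 0.000112, edgeR). The other 4 rows called lower were RLTR6B_Mm, RLTR1B_MM, RLTR48A and LTRIS2, and those called higher were RLTR6_MM, LTRIS5 and RLTR30_MM. Internal and other rows were thus among those that fell. The internal row RLTR4I_MM had a change of -0.44 and was not called (adjusted p = 0.644, edgeR). MuRRS4-int, also internal, was not called either, with means of 19.8 ± 3.78 CPM and 13.8 ± 3.40 CPM (SD, n = 2) in the smaller and the larger cluster.

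Against round spermatid-like cells, the smaller cluster had 3 rows called higher and 4 lower (23.5% and 21.0% of all rows tested), and the larger cluster had 4 higher and 9 lower (26.6% and 31.5%). RLTR6I_MM was not called in the smaller cluster but fell by 2.35 in the larger one (adjusted p = 3.64e-07, edgeR). Of the 4 rows called higher in the larger cluster, RLTR30_MM, MURVY_LTR and LTRIS5 had a lower mean CPM than in round spermatid-like cells, so that their direction rests on the scaling.

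The unnamed group was compared with both of its neighbours in the same fit. Against pachytene-like cells, 6 ERV1 rows were called higher and 7 lower (31.7% and 30.8% of all rows tested). RLTR6_MM rose by 1.10 (adjusted p = 4.64e-06, edgeR) and RLTR4I_MM fell by 1.65 (adjusted p = 2.20e-06, edgeR). From the unnamed group to round spermatid-like cells, 8 rows were called higher and 1 lower (25.7% and 20.2% of all rows tested). RLTR6I_MM rose by 1.54 (adjusted p = 2.26e-06, edgeR), and the row that fell was its LTR row RLTR6_MM, by 1.33 (adjusted p = 1.60e-06, edgeR). In the unnamed group, RLTR4I_MM was thus below its pachytene-like level, and RLTR6I_MM was below its round spermatid-like level. The place of the unnamed group between these neighbours was assumed, and no order of cells was computed.

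By total UMIs, the ERV1 level summed over all 86 rows differed little between the earlier germ cell groups, although single rows rose and fell. The sum was 318 CPM in mouse 1 and 373 CPM in mouse 2 in early spermatocyte-like cells, 329 and 330 CPM in pachytene-like cells, 316 and 329 CPM in the unnamed group and 333 and 370 CPM in round spermatid-like cells. It was 177 and 198 CPM in elongating-like cells. The log2 ratio of elongating over round was -0.91 ± 0.00552 (SD, n = 2) by total UMIs and -0.04 with TMM library sizes, so this fall depends on the scaling. Of pachytene over early it was -0.06 ± 0.161 and of round over pachytene 0.09 ± 0.104 by total UMIs, both within the spread between the mice. With TMM library sizes, these ratios were 0.23 and 0.41. The former was 0.46 in mouse 1 and 0.009 in mouse 2, and the latter was 0.30 and 0.51, so these steps depend on the scaling as well.

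The sums of the other classes of endogenous retrovirus were lower in pachytene-like than in early spermatocyte-like cells in both mice. ERV2 rows, 255 in number and related to the betaretroviruses, had a log2 ratio of -0.50 ± 0.105 (SD, n = 2) for pachytene over early, and the 129 ERV3 rows, which hold the ERVL and MaLR elements, had -0.73 ± 0.00714. The ERV1 ratio was 0.05 in mouse 1 and -0.18 in mouse 2, against -0.43 and -0.58 for ERV2 and -0.72 and -0.73 for ERV3. For elongating over round, the ratios were -0.91, -0.80 and -0.59 for ERV1, ERV2 and ERV3 by total UMIs. With TMM library sizes they were -0.04, 0.06 and 0.28, so the direction of the mean turned for ERV2 (-0.01 in mouse 1 and 0.14 in mouse 2) and for ERV3 (0.26 and 0.29). For pachytene over early, the ratios with TMM library sizes were 0.23, -0.21 and -0.43. In mouse 1 and mouse 2 they were 0.46 and 0.009 for ERV1, -0.02 and -0.39 for ERV2, and -0.31 and -0.55 for ERV3. With 2 mice, these differences between classes were not tested.

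**Figure D4:**
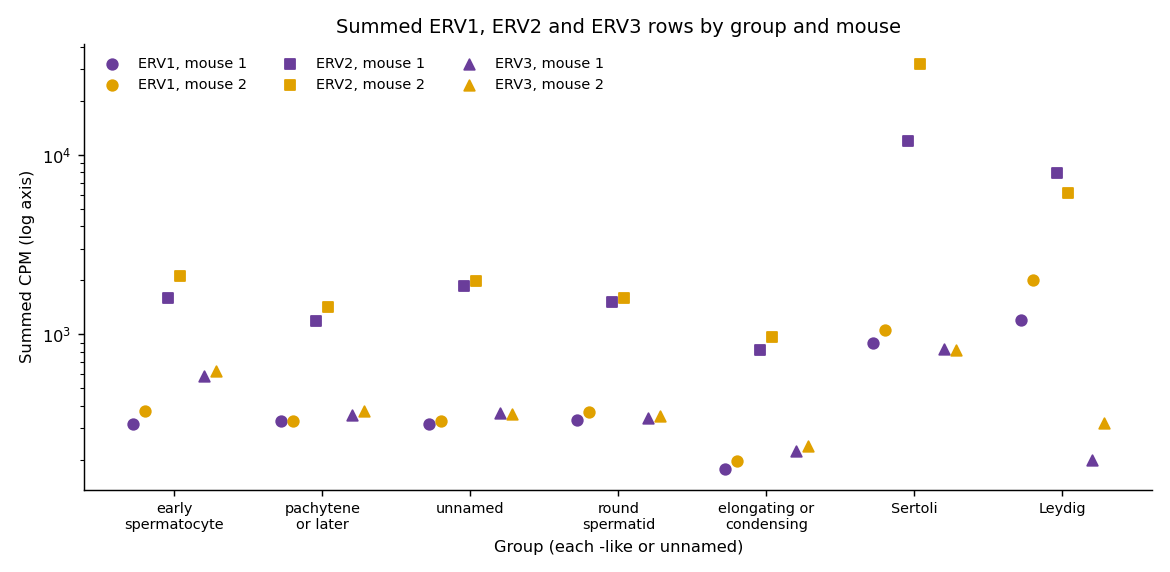
Summed CPM of the ERV1, ERV2 and ERV3 rows (vertical axis, log scale) in 5 germ cell groups and in Sertoli-like and Leydig-like cells (horizontal axis); each point is 1 mouse. ERV1 lies between 316 and 373 CPM in the first 4 groups, at 177 and 198 CPM in elongating-like cells and between 896 and 2014 CPM in Sertoli-like and Leydig-like cells.

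Summed over the cells of a group, the ERV1 level was highest in the few somatic-like cells. Leydig cells make testosterone between the seminiferous tubules, and Sertoli cells nurse the germ cells within them. In 5 Leydig-like cells (1 of mouse 1 and 4 of mouse 2), 94 of 50713 UMIs were on ERV1 rows, or 1854 CPM (exact 95% Poisson interval 1498 to 2268). In 7 Sertoli-like cells (6 of mouse 1 and 1 of mouse 2), 78 of 84783 UMIs were on ERV1 rows, or 920 CPM (727 to 1148). With 1 cell of a mouse in each of these groups, no test was made. Single germ cells reached such levels as well. The lowest Leydig-like cell had 1176 CPM, and 8 of 2534 cells in the germ cell groups were at or above it, among them a round spermatid-like cell with 21 ERV1 UMIs and 2434 CPM. ERV2 rows stood at 14814 CPM in Sertoli-like and 6507 CPM in Leydig-like cells, against 1479 CPM over all cells, and ERV3 rows at 826 and 296 CPM, against 351 CPM. The 6 cells without a name had 184 CPM (94.9 to 321).

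RLTR4I_MM made up 49 of the 94 ERV1 UMIs of the Leydig-like cells. The 5 cells had 7, 5, 6, 4 and 27 UMIs on this row, or 332 to 2857 CPM, and the first of them was the cell of mouse 1. All 5 cells thus carried MLV internal RNA, and 1 cell carried more than the other 4 together. Without that cell, the ERV1 level of the group was 1454 CPM. Over the group, RLTR4I_MM stood at 966 CPM (715 to 1277), against 16.6 ± 0.864 CPM (SD, n = 2) over all cells. Of 2534 cells in the 5 germ cell groups, 2 reached the level of the lowest Leydig-like cell, and the highest pachytene-like cell had 324 CPM.

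Both of these cells belonged to the unnamed group and to mouse 2. They had 340 and 824 CPM of RLTR4I_MM, with 7 and 6 UMIs. They also had 48 and 42 UMIs on the list of Leydig markers, with 9 and 7 of the 10 markers present, where the Leydig-like cells had 332 to 575 UMIs on that list. Neither was called a doublet. The part of Leydig cell RNA in their MLV level was not tested.

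**Figure D5:**
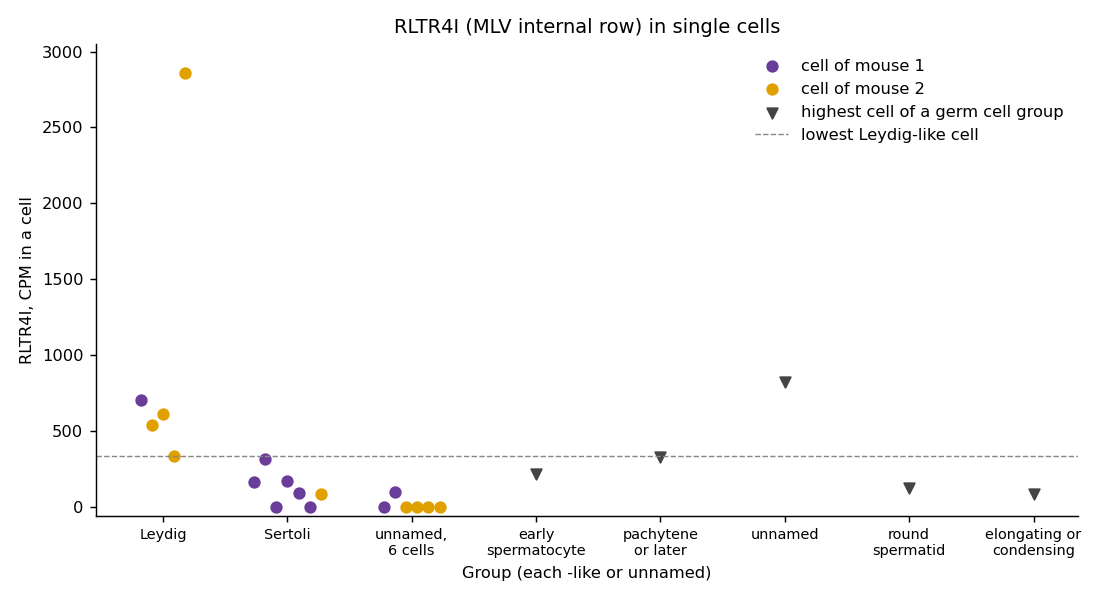
RLTR4I_MM, the MLV internal row, in CPM (vertical axis) in each Leydig-like, Sertoli-like and small unnamed cell (circles, coloured by mouse) and in the highest cell of each germ cell group (triangles). The 5 Leydig-like cells lie between 332 and 2857 CPM, and the highest cell of the unnamed germ cell group lies at 824 CPM.

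Other gammaretroviral rows were present in the Leydig-like cells as well. MMERGLN_I had 17 UMIs (335 CPM, 195 to 537), of which 12 were in 1 cell, which also had 5 of the 7 UMIs on MMERGLN_LTR. RLTR6_MM had 10 UMIs (197 CPM, 94.6 to 363). In Sertoli-like cells, RLTR6_MM led with 34 UMIs (401 CPM, 278 to 560), all in cells of mouse 1 and up to 14 in a cell, and RLTR4I_MM followed with 9 UMIs (106 CPM, 48.5 to 202). The VL30 internal row RLTR6I_MM had no UMI in either somatic-like group, and with 3 counts as the limit this allows up to 59.2 CPM in the Leydig group and 35.4 CPM in the Sertoli group.

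Markers of other cell types also had UMIs in these groups. In the Leydig-like cells, the 14 markers of elongating or condensing spermatids all had UMIs and summed to 6251 CPM, against 38266 CPM over all cells. In the same cells, 6 of 16 Sertoli markers summed to 7907 CPM, against 110 CPM over all cells. There, 1 of 9 immune markers came to 1735 CPM, where the immune list summed to 30.0 CPM over all cells. All 10 Leydig markers were present and summed to 41981 CPM, against 83.7 CPM over all cells. In the Sertoli-like cells, 14 of 16 Sertoli markers summed to 33662 CPM, 4 of 10 Leydig markers to 377 CPM and the 14 markers of elongating or condensing spermatids to 8386 CPM. Summed over the group, RLTR4I_MM in the Leydig-like cells stood above its level over all cells, which was 16.6 CPM. RLTR6_MM over the Sertoli-like cells of mouse 1 stood above its level over all cells, which was 29.7 CPM. The Sertoli-like cell of mouse 2 had no UMI on RLTR6_MM. In the unnamed germ cell group, RLTR6_MM stood at 63.0 CPM in mouse 1 and 54.7 CPM in mouse 2. The part of RNA from other cell types in the ERV1 levels of the somatic-like cells was not tested.

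Host genes that act on retroviruses were counted from lists of their members. Of 4 retroviral receptors listed, 3 were tested, of which 1 was called lower from early to pachytene and 2 from pachytene to round, beside 23.4% and 37.4% of all rows tested. Slc7a1, the receptor of ecotropic MLV, fell from 18.3 and 12.0 CPM in early spermatocyte-like cells to 3.35 and 3.49 CPM in pachytene-like cells of mouse 1 and mouse 2 (log2 change -1.78, standard error 0.345, adjusted p = 0.000229, edgeR). It was called lower again in round spermatid-like cells, where 2 UMIs were left (adjusted p = 5.04e-05, edgeR). Slc20a1, also on the list, fell by 1.03 in that step (adjusted p = 0.0129, edgeR). No receptor was called from round to elongating, and Xpr1, the receptor of polytropic MLV, passed in no step.

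Of 24 silencing factors tested, 6 were called higher and 10 lower from early to pachytene, 4 higher and 16 lower from pachytene to round, and 3 higher and 8 lower from round to elongating, beside the shares of all rows given above. The medians of their log2 changes were -0.50, -1.30 and -0.34. Hells, a chromatin remodeller needed for DNA methylation of repeats, fell by 2.50 from early to pachytene (adjusted p = 2.21e-08, edgeR), and Cbx1, a heterochromatin protein that binds methylated histone H3, fell by 2.18 (adjusted p = 1.53e-08, edgeR). From pachytene to round, Pphln1, a subunit of the HUSH silencing complex, rose from 17.2 and 13.4 CPM to 398 and 435 CPM (log2 change 5.06, adjusted p = 1.10e-14, edgeR). Suv39h2, a histone H3 lysine 9 methyltransferase, rose from 2.97 and 4.83 CPM to 86.9 and 110 CPM (log2 change 5.01, adjusted p = 3.54e-13, edgeR). The step in which most silencing factors fell thus included the strongest rises of the list. From round to elongating, Pphln1 fell by 1.99 (adjusted p = 7.78e-09, edgeR). Dnmt3a, a DNA methyltransferase, was called higher in that step (adjusted p = 0.000513, edgeR). It had 5 UMIs in round cells (0.461 and 0.494 CPM in mouse 1 and mouse 2) and 33 UMIs in elongating cells (1.25 and 4.38 CPM). Dnmt3a passed the filter on low counts only through the early cells of mouse 1 (3.66 CPM) and the elongating cells of mouse 2. The filter thus favoured this call, which is not read as a change, though the counts above include it.

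Of 6 restriction factors tested, 3 were called lower from early to pachytene, 1 higher and 1 lower from pachytene to round, and 3 higher from round to elongating. Of all rows tested, 23.4% were called lower in the first step, 36.9% higher and 37.4% lower in the second and 27.0% higher in the last. Bst2, which tethers budding virus to the cell, was low throughout, with 9, 6, 11 and 79 UMIs (2.56, 0.335, 1.06 and 6.84 CPM) in early, pachytene, round and elongating cells. It was called lower, higher and higher in the 3 steps, with log2 changes of -2.57, 1.90 and 3.53 (adjusted p = 0.00797, 0.0204 and 6.68e-07, edgeR). Bst2 passed the filter on low counts only through the early cells (1.83 and 2.89 CPM in mouse 1 and mouse 2) and the elongating cells (7.84 and 5.89 CPM). The filter thus favoured the first and the last of these calls, and the second rests on 6 against 11 UMIs. The counts above include all 3. Serinc5, which lowers the infectivity of virus particles, had 14 UMIs (3.99 CPM) in early and 6 UMIs (0.335 CPM) in pachytene cells. It was called lower in that step (adjusted p = 0.000936, edgeR). From round to elongating it was called higher with 4 UMIs against none (adjusted p = 0.0318, edgeR). Serinc5 passed the filter on low counts only through the early cells (6.41 and 2.89 CPM in mouse 1 and mouse 2). The filter thus favoured a fall, and neither call is read as a change, though the counts above include both. Marf1, an RNA nuclease known from oocyte meiosis, fell by 2.20 from pachytene to round (adjusted p = 1.08e-05, edgeR).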

How the data were processed

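Cells of 2 testes were profiled with Chromium 3′ chemistry v2, in 1 library per mouse. Per the labels and the methods of the study, the authors demultiplexed reads with bcl2fastq 2.17.1.14 and Cell Ranger 2.0.0 (versions from the submitters' processing notes), aligned them to a repeat-masked GRCm38 (mm10) genome to which RepBase sequences had been added, and combined the mice with downsampling of reads. The deposited values are whole UMI counts per row and cell, not normalized. Barcode endings 1 and 2 were read as mouse 1 and mouse 2, which no source states outright. All 2552 cells (27450497 UMIs in mouse 1 and 30302332 in mouse 2) were kept, including 25 that scrublet called doublets. There were 0 columns of other samples.

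The ERV1 rows, the host gene lists and the marker lists were chosen with earlier results of these data known. Named rows are those with at least 100 UMIs in all, and rows called in a step. Host genes named are mainly the 2 with the largest absolute log2 change per list and step among those called. Gene rows were clustered by K-means (K = 9, 10 principal components, seed 42). A cluster took the name of the list with the highest mean standardised expression if at least 3 of its markers reached 1.5 times the CPM of all cells and its 10 leading genes held no more markers of other lists than of its own. UMIs were summed per mouse over the 5 germ cell groups of at least 100 cells. The sums were tested with edgeR 4.0.16 (quasi-likelihood test, TMM scaling, filterByExpr, Benjamini-Hochberg adjustment over 15005 rows, threshold 0.05), with 1 estimate of the spread for all groups. Since 1 condition was sampled, p-values set the differences between cell groups against the spread between 2 mice. The main fit took the sums of a mouse as independent. The fit was first tested on simulated counts. The sums of a mouse share an animal and are paired, and the deviations of their log CPM from the group means had correlations of 0.0296 to 0.202 over 15005 rows.

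Alternatives were DESeq2 1.42.0, RLE size factors, total UMIs without scaling factors, no filter, the mouse as a block, K = 10, another seed, no doublets, no unnamed cluster, thinning to 5000 UMIs per cell, other denominators and leaving out a mouse. Fitting the clusters of elongating cells separately was added after seeing the data. Other software was Python 3.11.15, scikit-learn 1.9.0, scanpy 1.11.5, scipy 1.17.1 and R 4.3.3. Sequences of the RepBase elements were not used here.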

Additional observations from a re-analysis of the deposited data

How the results depend on the processing

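Of the 27 row and step combinations called among the named rows, all 27 kept their call and direction with the mouse as a replicate block, 26 with RLE size factors, 25 with DESeq2, 21 of 27 without scaling factors and 17 of the 24 that could be tested after thinning. Without scaling factors, RLTR30_MM and MURVY_LTR reversed from round to elongating (-0.25 and -0.16). With the block, the calls numbered 5, 17 and 10 in the 3 steps, against 5, 16 and 9, and RLTR6I_MM was the named row gained. Without the filter and with K = 10 they also numbered 5, 17 and 10, with another seed or without doublets 5, 16 and 9, and without the unnamed cluster 4, 15 and 8. Thinning left 2 calls from early to pachytene and 8 from pachytene to round, in 17 tested ERV1 rows. Without scaling factors, 16 rows were called from round to elongating. Calls could not be fitted with 1 mouse left out, since no residual degrees of freedom remain, and for values alone no called direction reversed then. Of the called values, 20 of 27 without mouse 1 and 19 of 26 without mouse 2 were counted as unchanged, and the others moved.

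The log2 ratio of summed ERV1 CPM for pachytene over early reversed to 0.23 with TMM library sizes and to 0.013 as a mean over cells, was -0.23 without RLTR30_MM, and ranged from -0.18 to 0.051 with a mouse left out. Round over pachytene was 0.41 with TMM library sizes and ranged from 0.02 to 0.16. Elongating over round was -0.044 with TMM library sizes, -1.01 as a mean over cells, -0.92 with K = 10 and -1.07 without RLTR30_MM. With a mouse left out, the ERV1 level was 1201 to 2014 CPM in Leydig-like cells and 896 to 1064 CPM in Sertoli-like cells. Where no cause is stated above, the cause was not tested. Depth limits the rows with few UMIs. The lowest total of a tested group was 1091527 UMIs, in early spermatocyte-like cells of mouse 1, and its effect on the calls was not tested.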
